A study of Mus musculus with 6 samples.

Results

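Endothelial cell identity genes, which mark the cells that line the inside of a vessel, were examined in wire-injured mouse carotid arteries with and without extra IRF9 in smooth muscle. The set of 34 genes was a written list of receptors, transcription factors, junction and surface proteins, secreted proteins, capillary genes and leukocyte adhesion molecules. Each was found by the probe sets whose annotation names that gene and no other, and was represented by its brightest probe set over the 6 arrays. All 34 genes were measured, of 18193 genes in the table, by 60 probe sets in total. The study asked how arteries overexpressing IRF9 in vascular smooth muscle cells (SMC-IRF9-TG) differed from those of non-transgenic mice (NTG) after injury. All mice were C57BL/6 by their labels, and the methods describe males aged 10 to 12 weeks. The transgene joined the full-length mouse IRF9 cDNA with an HA tag to a promoter of SM22α and an SV40 polyA signal. This promoter is active in smooth muscle, so the transgene was not aimed at endothelial cells, and the labels do not say which transgenic line was used. The paper used its line with the highest IRF9 level for later phenotypic work and names no line for the arrays. By staining, it found minimal IRF9 in endothelial cells, without a significant difference between transgenic and non-transgenic arteries. Both groups had a wire injury of the left carotid artery and were sampled at day 14, and no uninjured artery was analysed here. Each group held 3 pools, each of 3 to 5 vessels, with 400 ng of RNA on 1 array per pool. Which animals entered each pool is not in the labels, and the p-values therefore reflect how much pools of 1 group differed, which may be technical in part.

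The endothelium is a single layer of cells joined by VE-cadherin and other junction proteins, and it is kept in its state by vascular growth factor receptors and by transcription factors of the ETS and SoxF families. Wire injury scrapes this layer off, and it is rebuilt by endothelial cells that move in from the uninjured ends of the vessel. Most of these genes are used in few other cell types, but Fli1 and Pecam1 are also made by blood cells, Vwf also by megakaryocytes and kept in platelets, and Vcam1 and Icam1 also by stimulated smooth muscle cells and leukocytes.

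Levels are given as log2 probe-set values, so a difference of 1 stands for a doubling of signal, and levels of different probe sets are not compared with each other. The array medians lay between 3.42 and 3.66, and arrays of the NTG group correlated with each other at r = 0.927 to 0.955 across probe sets, against 0.980 to 0.985 in the SMC-IRF9-TG group. Lower quartiles of the arrays separated the groups, at 2.57 to 2.66 for NTG against 2.33 to 2.41 for SMC-IRF9-TG. Some pools stood apart from the others. Xist, a transcript made only where a second X chromosome is silenced, was high at 9.94 and 9.50 in pools 1 and 2 of NTG but lay between 2.94 and 4.08 in the other 4 pools, although the methods state male mice. The 3′ probe set of Actb exceeded the 5′ one by 7.09 in NTG pool 2 and by 1.56 to 3.04 elsewhere, a sign of shortened RNA in that pool. The poly-A spike-in controls averaged 5.03 and 4.55 in pools 1 and 2 of SMC-IRF9-TG, and from 7.53 to 11.7 elsewhere. Irf9 itself (probe set 1421322_a_at) was 5.18 ± 0.38 in NTG and 5.48 ± 0.09 in SMC-IRF9-TG (SD, n = 3), a difference of 0.30 (SE 0.23, limma adjusted p = 0.436), and where this probe set lies relative to the transgene was not known, so it does not check the labels. All 8 smooth muscle markers lay above the lower quartile of their array in all pools, as did 31 of the 34 endothelial genes against 74.8% of all genes. Sele passed that level on 4 arrays, and Mmrn1 and Gpihbp1 each on 5.

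In the comparison of the groups, 5 endothelial genes rose in SMC-IRF9-TG arteries, namely Sox18, Tie1, Fli1, Erg and Calcrl, with differences from 1.22 to 2.04. None fell. The 5 make up 14.7% of the 34 genes, beside 3.11% of all genes that passed in the higher direction (3.62% in either direction) at a limma adjusted p under 0.05, and 4.68% of the 11736 genes above the median level, where 31 of the 34 lay. The count of 0 genes lower in limma stands beside 0.511% of all genes lower, and 0 of the 34 were lower at an unadjusted p under 0.05 in limma or by the methods' t-test, beside 9.81% and 9.18% of all genes. At that unadjusted level 8 of the 34 (23.5%) were higher in limma, beside 14.9% of all genes. In the limma fit with dim probe sets left out, 8 of the 31 genes tested (25.8%) were higher at that level. This stands beside 20.1% of the 11736 genes of that fit, with 0 of the 31 lower beside 5.04%. At the same level the count of the 34 genes lower was not 0 in all fits. It was 3 under quantile normalization (beside 9.72% of all genes), 5 without NTG pool 3 (11.4%) and 2 with array weights (10.3%). It was 1 with the replicate block (7.99%), the trended and robust prior (10.6%) or without SMC-IRF9-TG pool 2 (4.78%). It was 0 with centring, averaged probe sets or any other array left out. The median difference over the 34 genes was 0.30 (quartiles −0.02 and 1.09), against −0.05 over all genes (quartiles −0.33 and 0.37) and 0.17 over genes above the median level. Of the 34 genes, 23 had a positive and 11 a negative difference. For 7 genes the groups did not overlap with SMC-IRF9-TG higher, which is 20.6% of the 34 beside 16.1% of all genes. With SMC-IRF9-TG lower this held for 0 of the 34, also beside 16.1% of all genes. These shares of all genes include dim genes and were not computed for genes above the median level alone. In whole vessels, a change in the number of endothelial cells and a change in RNA per cell cannot be told apart.

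Pecam1, Cdh5, Kdr, Tek and Vwf, the markers used most often for endothelial cells, did not pass. The count of 5 was the same, with the same genes, without NTG pool 2, but was 1 (Sox18) under quantile normalization, 2 (Fli1 and Vcam1) with the arrays high in Xist as a block, 0 with the arrays low in poly-A controls as a block and 0 by the methods' t-test after adjustment. Without NTG pool 1 it was 3, without NTG pool 3 it was 5 (with Plvap and Vcam1 in place of Tie1 and Erg), and without SMC-IRF9-TG pools 1, 2 or 3 it was 1, 0 or 2. Over all genes, quantile normalization gave 279 higher and 97 lower in place of 566 and 93. The share of all genes higher, 3.11% with the default settings, changed too. It was 1.55%, 3.41% and 3.78% without NTG pools 1, 2 and 3. Without SMC-IRF9-TG pools 1, 2 and 3 it was 1.09%, 0.929% and 1.32%. The methods' t-test called 0 of all genes, and both added blocks called fewer of all genes than the fit without them.

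**Figure D1:**
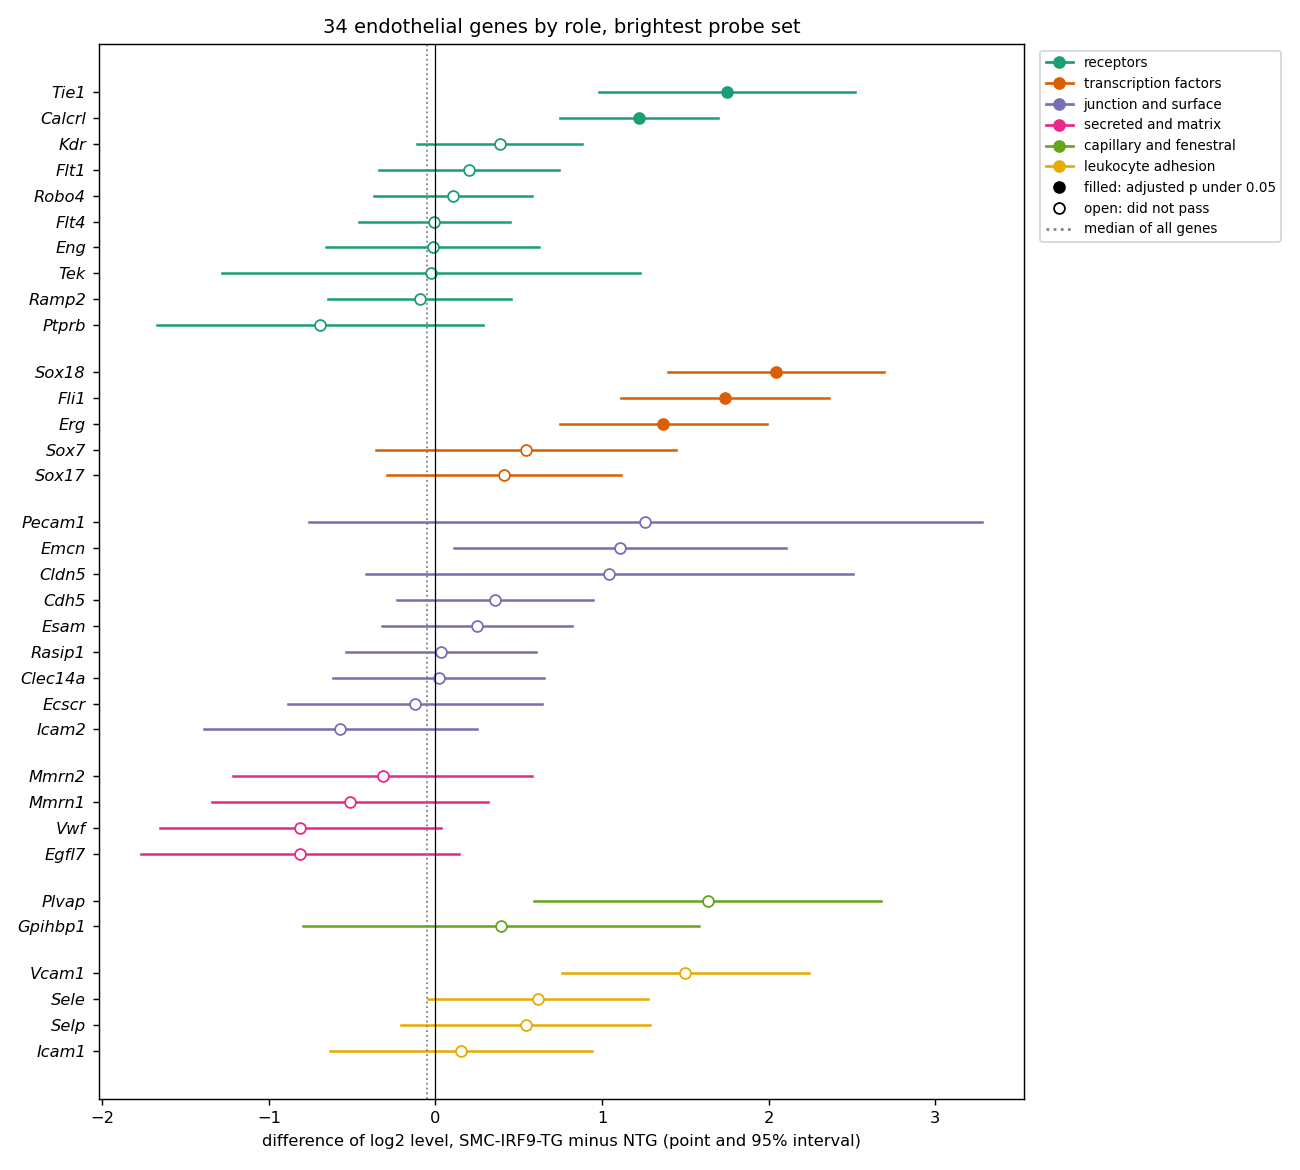
Difference of log2 level between SMC-IRF9-TG and NTG pools (horizontal axis, point with its 95% interval) for the 34 endothelial genes, grouped by role, with filled points for an adjusted p under 0.05. The 5 filled points lie between 1.22 and 2.04, 3 of them among the 5 transcription factors, while the 4 secreted proteins all lie left of 0.

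By brightest probe sets, the transcription factors had the largest median difference of the 6 role groups, 1.37, with 3 of 5 genes higher and all 5 differences positive. Sox18, a SoxF factor of developing blood and lymphatic vessels, read 5.01, 4.36 and 5.46 in NTG and 6.81, 7.06 and 7.10 in SMC-IRF9-TG, always in the order of pools 1, 2 and 3. The groups did not overlap, and the lowest SMC-IRF9-TG pool stood above the highest NTG pool. The means were 4.94 ± 0.55 and 6.99 ± 0.16 (SD, n = 3), a difference of 2.04 (SE 0.28, 95% interval 1.39 to 2.69) or 4.12-fold, with a limma adjusted p of 0.0103. This was the largest difference among the 34 genes.

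Fli1, an ETS factor of endothelial cells and of blood cells, read 4.64, 5.01 and 4.09 in NTG against 6.60, 6.29 and 6.07 in SMC-IRF9-TG, again without overlap. Its mean rose from 4.58 ± 0.46 to 6.32 ± 0.27 (SD, n = 3), a difference of 1.74 (SE 0.27) or 3.33-fold with a limma adjusted p of 0.0162. A second Fli1 probe set, 1422024_at, gave a difference of only 0.17 with an adjusted p of 0.779 in limma. Erg, the ETS factor that maintains endothelial junctions and identity, read 5.75, 4.79 and 5.37 against 6.58, 6.92 and 6.52. These groups did not overlap either. Its difference was 1.37 (SE 0.27) between means of 5.30 ± 0.48 and 6.67 ± 0.22 (SD, n = 3), which is 2.58-fold, with a limma adjusted p of 0.0387. The other Erg probe set, 1425370_a_at, differed by −0.38 with an adjusted p of 0.373 in limma.

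The remaining SoxF factors did not pass. Sox7 differed by 0.55 (adjusted p = 0.417 in limma) and Sox17, an arterial factor, by 0.41 (adjusted p = 0.432). For both the pools overlapped. A dimmer Sox7 probe set, 1432495_at, differed by −0.52, did not pass and was above the lower quartile on 1 array. No difference among the SoxF genes was tested.

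**Figure D2:**
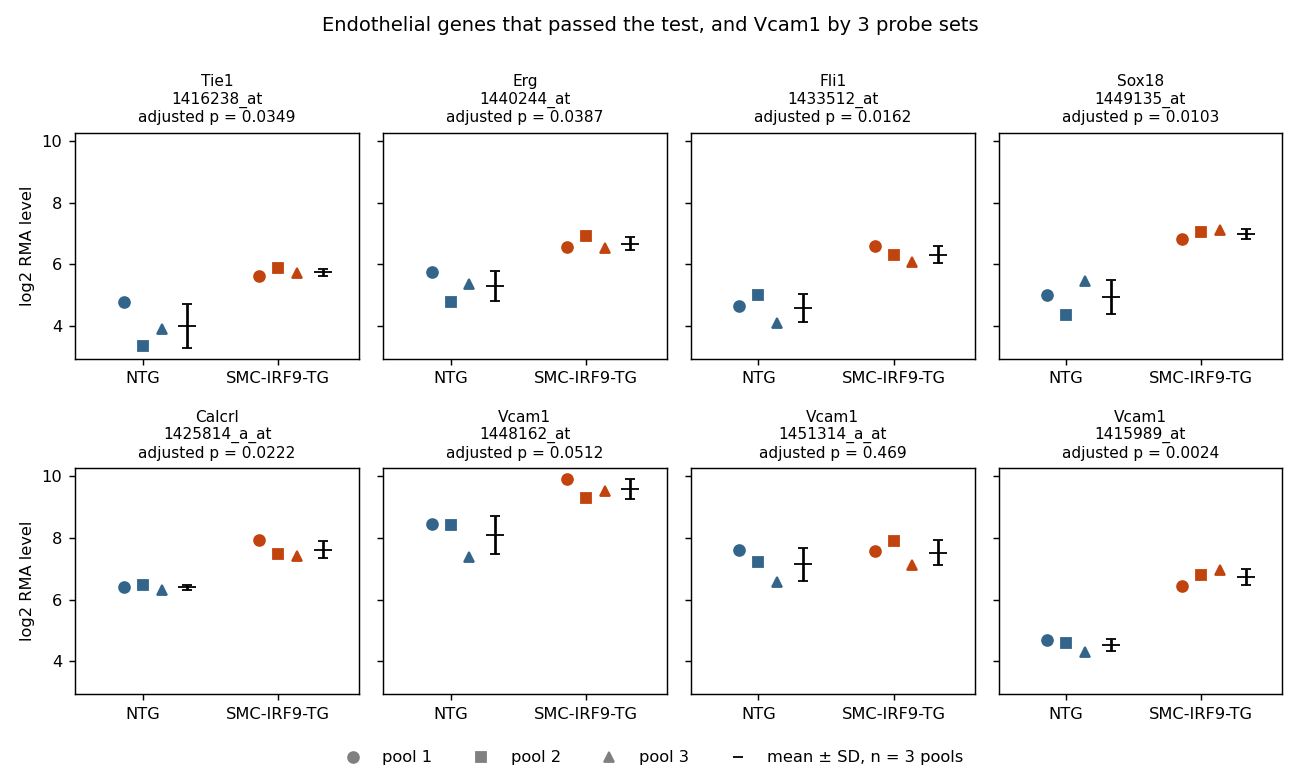
Log2 level (vertical axis) in each NTG and SMC-IRF9-TG pool for the 5 endothelial genes that passed and for the 3 probe sets of Vcam1, with marker shapes for pools and bars for the mean ± SD of 3 pools. In the panels of the 5 genes each SMC-IRF9-TG pool lies above each NTG pool, and 1 of the 3 Vcam1 panels shows overlap.

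Among the 10 receptors and receptor partners, 2 were higher and none lower, and the median difference was 0.05. Tie1, a receptor tyrosine kinase without a ligand of its own that modulates angiopoietin signals, read 4.76, 3.34 and 3.89 in NTG and 5.64, 5.87 and 5.73 in SMC-IRF9-TG. Its mean rose from 4.0 ± 0.72 to 5.75 ± 0.12 (SD, n = 3), a difference of 1.75 (SE 0.34, 95% interval 0.98 to 2.52) or 3.36-fold at a limma adjusted p of 0.0349. The groups did not overlap, and the NTG pools spread far more widely than the SMC-IRF9-TG pools. Calcrl, the receptor that binds adrenomedullin or CGRP depending on its partner protein, read 6.40, 6.47 and 6.33 in NTG and 7.94, 7.49 and 7.43 in SMC-IRF9-TG. With SDs of 0.07 and 0.28 (n = 3), the difference of 1.22 (SE 0.21) or 2.33-fold passed at an adjusted p of 0.0222 in limma. The other probe sets of Calcrl differed by −0.54 and −0.38, were above the lower quartile on 1 and 0 arrays, and did not pass.

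Tek, the angiopoietin receptor Tie2, did not pass. Its NTG values were 8.33, 8.60 and 6.22 and its SMC-IRF9-TG values 7.74, 7.90 and 7.44, all of the latter inside the NTG range. The difference was −0.03 (95% interval −1.28 to 1.23, limma adjusted p = 0.981), and the low value in NTG pool 3 set the NTG mean. Kdr, the main VEGF receptor of endothelial cells, read 4.46, 4.57 and 5.02 against 5.14, 4.90 and 5.17, a difference of 0.39 (95% interval −0.11 to 0.88, limma adjusted p = 0.311) with overlapping pools. The other VEGF receptors differed by 0.20 for Flt1 and −0.01 for Flt4, a receptor of lymphatic vessels. The dimmer Flt1 probe sets differed by 0.51, 0.59 and −0.29, and none of them passed. Eng, a TGF-β family co-receptor, differed by −0.02, Robo4, a guidance receptor that stabilizes vessels, by 0.11, and Ramp2, the partner that turns Calcrl into an adrenomedullin receptor, by −0.10. Ptprb, a phosphatase that acts on Tie2 and VE-cadherin, differed by −0.69. The 8 receptors that did not pass had limma adjusted p values from 0.311 to 0.984.

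The promoters of the genes that passed are shown where the RefSeq promoter table (build GRCm38.p6) held them, so that the sequence at the start of each can be read. Each holds 250 bases before the start and 50 after it, 5′ to 3′ on the strand of the gene. Capitals mark AGGAAG, a core of ETS factor sites, and AACAAT, a core of Sox factor sites, or the reverse complement of either, and the marked matches do not overlap. Tie1 lies at chr4:118489800-118490099 on the minus strand, Erg at chr16:95459299-95459598 on the minus strand, and Calcrl at chr2:84425217-84425516 on the minus strand.
Tie1: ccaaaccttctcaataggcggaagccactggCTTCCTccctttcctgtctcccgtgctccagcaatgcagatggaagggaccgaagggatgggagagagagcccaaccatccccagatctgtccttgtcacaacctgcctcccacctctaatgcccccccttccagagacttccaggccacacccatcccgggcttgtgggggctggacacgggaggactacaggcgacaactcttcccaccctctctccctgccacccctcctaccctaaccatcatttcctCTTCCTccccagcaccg
Erg: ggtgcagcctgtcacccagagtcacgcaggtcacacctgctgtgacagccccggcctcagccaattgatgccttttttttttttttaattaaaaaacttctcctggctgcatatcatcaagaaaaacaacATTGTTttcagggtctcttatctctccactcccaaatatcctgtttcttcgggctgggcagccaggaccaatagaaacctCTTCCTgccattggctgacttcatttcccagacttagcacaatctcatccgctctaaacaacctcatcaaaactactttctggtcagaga
Calcrl: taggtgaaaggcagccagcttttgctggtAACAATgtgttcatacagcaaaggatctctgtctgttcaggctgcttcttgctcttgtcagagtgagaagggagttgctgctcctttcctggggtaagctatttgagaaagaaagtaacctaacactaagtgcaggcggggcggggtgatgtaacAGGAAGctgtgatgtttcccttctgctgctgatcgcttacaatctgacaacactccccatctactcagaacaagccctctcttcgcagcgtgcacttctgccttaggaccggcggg
The Tie1 promoter held AGGAAG at 2 places and no AACAAT, and the promoters of Erg and Calcrl each held 1 of both. Erg had 3 promoters in the table, and the 2 not printed held neither motif. Over all 32851 promoters of this length, searched on both strands, 35.4% held AGGAAG and 10.7% held AACAAT. The interferon-stimulated response element (GAAA, any 2 bases, GAAA) was in 3.44% and the NF-κB motif in 8.46% of all promoters, and neither was in the 3 sequences printed. The table held promoters of 18 of the 34 genes, which is too few for a share over the set, and Fli1 and Sox18 are only named. These matches describe letters in a window and say nothing of binding.

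The 9 junction and surface proteins did not pass, with limma adjusted p values from 0.191 to 0.970 and a median difference of 0.25. Pecam1 (CD31), the adhesion molecule most used to stain endothelium, read 8.46, 4.15 and 5.66 in NTG against 7.43, 7.53 and 7.09 in SMC-IRF9-TG. The 3 NTG pools spanned the SMC-IRF9-TG values on both sides, with an SD of 2.19 against 0.23 (n = 3). The difference of 1.26 had a 95% interval of −0.76 to 3.28 (limma adjusted p = 0.405), and it was 0.29 without NTG pool 2. Cdh5, which encodes VE-cadherin, read 6.47, 6.31 and 5.73 against 6.53, 6.24 and 6.81. This difference of 0.36 (95% interval −0.23 to 0.94) also did not pass (limma adjusted p = 0.417), and a second, dimmer Cdh5 probe set differed by −0.43.

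Emcn, a sialomucin of veins and capillaries, was the one gene of this group whose pools did not overlap. It differed by 1.11 (95% interval 0.11 to 2.10) with a limma adjusted p of 0.191, and without NTG pool 3 by 0.57. Cldn5, a tight junction protein, differed by 1.04, with pools from 4.50 to 6.68 in NTG and from 5.97 to 8.02 in SMC-IRF9-TG, and by 0.40 without NTG pool 2 or 0.45 without SMC-IRF9-TG pool 2. The differences were 0.25 for Esam, a junction adhesion molecule, 0.03 for Rasip1, a Ras-interacting protein needed for vessel lumens, 0.02 for Clec14a and −0.12 for Ecscr, both surface proteins of endothelial cells, and −0.57 for Icam2, a ligand of leukocyte integrins. None of these 5 passed. The dimmer Clec14a probe set differed by −0.78 and did not pass either.

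Secreted and matrix proteins formed the only role group in which all differences, 4 of 4, were negative, with a median of −0.66 and no gene past the test. Vwf, the multimeric protein that binds platelets to exposed matrix, read 9.72, 9.34 and 8.18 in NTG against 8.08, 8.23 and 8.49 in SMC-IRF9-TG. NTG pools 1 and 2 were higher than any SMC-IRF9-TG pool and NTG pool 3 was not. The difference was −0.81 (SE 0.37, 95% interval −1.65 to 0.03, limma adjusted p = 0.237). Without NTG pool 3 the limma test called Vwf lower, with a difference of −1.26 and an adjusted p of 0.0351, and Ptprb too, at −1.25 and 0.0349. With the arrays high in Xist as a block, Vwf differed by 0.09 and Ptprb by 0.41.

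Egfl7, a secreted factor of vessel tubes, differed by −0.82 (limma adjusted p = 0.277) on its brightest probe set, while its other 3 probe sets differed by −0.0042, 0.32 and 0.03. The multimerins Mmrn1, found in platelets and lymphatic vessels, and Mmrn2, an endothelial matrix protein, differed by −0.51 and −0.32, and neither passed. Mmrn2 had probe sets of both signs, from −0.38 to 0.30. The direction of the secreted group therefore turned with the probe set for Egfl7 and Mmrn2.

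The 2 capillary genes both had positive differences. Plvap, which forms the diaphragms of fenestrated vessels and caveolae, read 4.97, 4.39 and 6.09 in NTG and 6.06, 7.11 and 7.18 in SMC-IRF9-TG. Only SMC-IRF9-TG pool 1 reached into the NTG range, just under NTG pool 3. The difference of 1.63 (95% interval 0.59 to 2.68) had a limma adjusted p of 0.101, and without NTG pool 3 it was 2.10 with an adjusted p of 0.0376. Gpihbp1, which holds lipoprotein lipase at the capillary wall, differed by 0.39 (adjusted p = 0.658 in limma).

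The 4 leukocyte adhesion genes all had positive differences, with a median of 0.58, and none passed by its brightest probe set. Vcam1, which binds α4 integrins of monocytes and lymphocytes, came closest. Its brightest probe set, 1448162_at, read 8.47, 8.44 and 7.37 in NTG and 9.93, 9.31 and 9.54 in SMC-IRF9-TG. The groups did not overlap, and the difference of 1.50 (SE 0.33, 2.83-fold) missed the threshold at a limma adjusted p of 0.0512. A dimmer probe set of the same gene, 1415989_at, passed: it read 4.70, 4.60 and 4.32 against 6.45, 6.81 and 6.96, a difference of 2.20 (SE 0.22) or 4.61-fold, with a limma adjusted p of 0.0024. The third, 1451314_a_at, differed by 0.39 with overlapping pools (adjusted p = 0.469 in limma). Over 16 alternative settings of the test, both added blocks included, the adjusted p of Vcam1 by its main probe set ran from 0.0205 to 0.624.

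E-selectin (Sele) and P-selectin (Selp), on which leukocytes roll, differed by 0.61 and 0.54, with limma adjusted p values of 0.247 and 0.342. The 3 probe sets of Selp all had positive differences, from 0.46 to 0.58. Icam1, a ligand of β2 integrins, differed by 0.15 (adjusted p = 0.803 in limma), with SMC-IRF9-TG pools inside the NTG range.

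**Figure D3:**
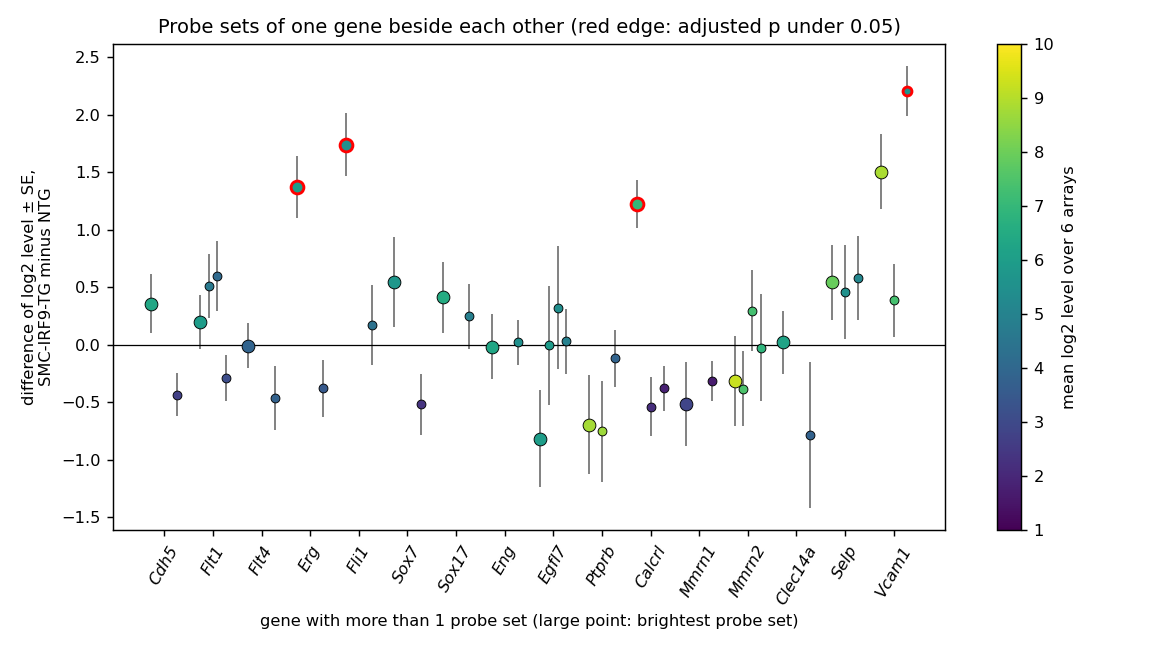
Difference of log2 level ± SE (vertical axis) for each probe set of the 16 endothelial genes measured by more than 1, coloured by mean level, with large points for the brightest set and red edges for an adjusted p under 0.05. Of these genes 9 have probe sets on both sides of 0, Erg and Calcrl among them, and Vcam1 passes by 1 of its 3 probe sets, which is not the brightest.

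Of the 60 probe sets of these genes, 6 were higher and 0 lower in limma, beside 2.37% and 0.373% of all 45037 probe sets (2.75% in either direction). In 7 of the 16 genes with several probe sets all had one sign, and in 9 they did not. When all probe sets of a gene were averaged, Erg differed by 0.49 (limma adjusted p = 0.108) and Calcrl by 0.10 (adjusted p = 0.738). Both calls therefore rest on 1 probe set. The dimmer probe sets in these averages read at most 4.20 for Erg and 2.83 for Calcrl. Vcam1 passed when averaged, with 1.36 and a limma adjusted p of 0.0205. Fli1 passed when averaged as well, although its second probe set alone did not. Sox18 and Tie1 have a single probe set each.

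The spread between pools was larger in NTG than in SMC-IRF9-TG arteries for 27 of the 34 genes, while this held for 70.0% of the genes above the median level. The median SD of the endothelial genes was 0.53 in NTG and 0.27 in SMC-IRF9-TG, against 0.36 and 0.23 over the genes above the median level. The mean level over the 34 genes was 6.28, 5.90 and 5.71 in NTG and 6.46, 6.42 and 6.30 in SMC-IRF9-TG, so the groups met almost at 6.28 and 6.30.

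The low values of the NTG group belonged to different genes in different pools. In NTG pool 3, 6 of the 34 genes (17.6%) lay more than 1 log2 unit below both other NTG pools, beside 2.15% of the genes above the median level. These were Tek, at −2.11 from the nearer pool, then Ptprb, Emcn, Vwf and Vcam1, and last Mmrn2 at −1.04. In NTG pool 2 the same was seen for 3 genes (8.82% beside 5.57%), namely Cldn5 (−1.68), Gpihbp1 (−1.67) and Pecam1 (−1.50), and in NTG pool 1 for 0 genes (beside 1.18%). NTG pool 3 is the one NTG pool low in Xist, and NTG pool 2 the one with the wide Actb gap. Whether RNA quality or the make-up of each pool plays a part in these values was not tested.

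**Figure D4:**
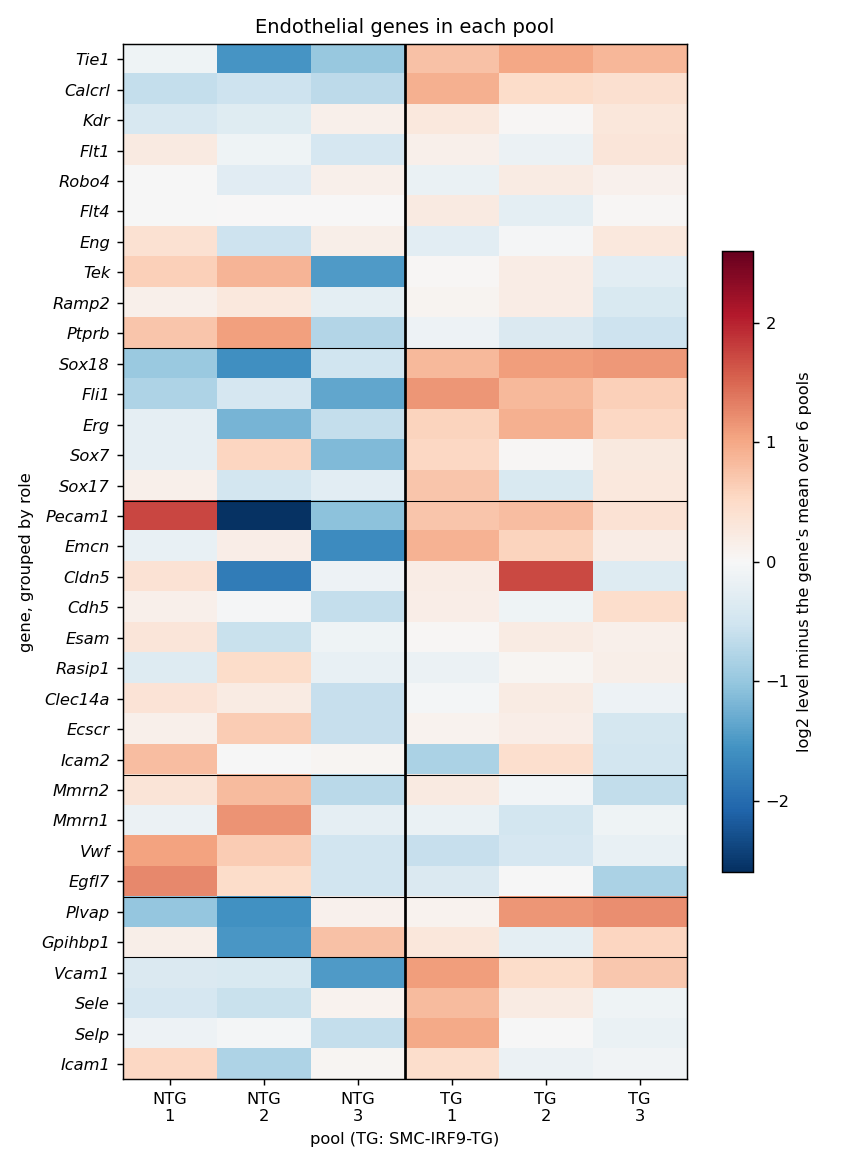
Log2 level of each endothelial gene in each pool minus the mean of that gene over 6 pools, as a colour scale (red above, blue below), with NTG pools left and SMC-IRF9-TG pools right of the line and genes grouped by role. Sox18, Fli1, Erg and Tie1 are blue in NTG and red in SMC-IRF9-TG, whereas Tek is low in NTG pool 3 alone, and Pecam1 ranges from 4.15 to 8.46 within NTG.

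A further list of ligands of these receptors held 15 measured genes, of which 1 was higher and 0 were lower in limma. The median difference was 0.27. The counts here and in the lists below stand beside 3.11% of all genes higher and 0.511% lower. Angpt2, the angiopoietin that opposes Tie2 signalling and is stored in endothelial cells, rose from 6.56 ± 0.38 to 8.15 ± 0.47 (SD, n = 3), a difference of 1.59 (SE 0.30, limma adjusted p = 0.0309) without overlap of the pools. Its other probe set differed by 0.64 and did not pass. Angpt1 differed by 0.86 and Vegfa by 0.68, both short of the threshold. Adm, the adrenomedullin gene whose product binds Calcrl with Ramp2, had pools without overlap and a difference of −1.52 with a limma adjusted p of 0.0659. Adm, Angpt1 and Vegfa were picked after their values were seen.

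Counter-receptors by which leukocytes bind the adhesion molecules were taken as a further list. Which cells of the artery made them was not tested. Of 11 counter-receptors 4 were higher and 0 lower in limma, with a median difference of 0.98. Itgb2, the β2 integrin chain that binds Icam1 and Icam2, differed by 3.36 (adjusted p = 0.0035), Itgax by 2.36, Selplg, the ligand of P-selectin, by 2.16 and Cd44 by 2.14. The endothelial partners Icam1, Icam2 and Selp differed by 0.15, −0.57 and 0.54 and did not pass. Vcam1 differed by 1.50 and Sele by 0.61, and neither passed by its brightest probe set. A dimmer Vcam1 probe set passed with a difference of 2.20.

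Other endothelial genes outside the 34 gave 3 higher and 1 lower of 50 measured, with 38 positive differences. Of all genes above the median level, 4.68% were higher and 0.537% lower. The median of the 50 was 0.26, beside 0.17 over genes above the median level. Gja4, a connexin of arterial endothelium, rose by 1.69 (limma adjusted p = 0.048), Notch4, an endothelial Notch receptor, by 1.45 and Elk3, an ETS factor, by 1.28. The other probe sets of Notch4 differed by 0.18 and −0.62 and those of Elk3 by 0.68, −0.0093 and −0.19, and none of these passed. Rgcc, a cell cycle regulator, differed by −3.64 (limma adjusted p = 0.00159) on 1 probe set and by −0.01 on another.

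Among the lists of other cell types, most calls in the same comparison came from macrophages and fibroblasts. Of 12 macrophage markers 11 were higher and 0 lower, with a median difference of 3.63 and mean levels from 3.63 to 4.15 in NTG pools and from 7.40 to 7.68 in SMC-IRF9-TG pools. Tyrobp, Lyz2 and C1qc differed by 5.42, 5.05 and 5.03, and Fcgr1 did not pass. Of 8 fibroblast markers 5 were higher, with a median of 1.66 and mean levels from 6.91 to 7.29 against 8.82 to 9.25, led by Lum at 5.30. The 8 smooth muscle markers gave 0 calls, a median of 0.14 and mean levels from 8.74 to 9.75 against 9.32 to 9.60. Platelet markers gave 1 higher of 10 (Pf4, by 1.43) with a median of −0.30 and mean levels from 4.57 to 4.83 against 4.40 to 4.94. Lymphatic markers, which include Flt4 and Mmrn1, gave 0 calls of 6 and a median of −0.20, at mean levels from 3.29 to 3.79 against 3.30 to 3.83. T cell markers gave 0 of 6 with a median of 0.30 at 3.23 to 3.81 against 3.63 to 4.19. Erythrocyte markers gave 0 of 4 with a median of −0.41 at 2.88 to 3.34 against 2.63 to 2.66. Adipocyte markers gave 1 higher (Lpl) and 1 lower (Pparg) of 6 with a median of −0.16 at 4.12 to 4.23 against 3.99 to 4.26, and 3 of the 6 were not above the lower quartile on all arrays. The part of these cells in the values of Fli1, Vcam1 and Pecam1, genes that some of them also make, was not tested.

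**Figure D5:**
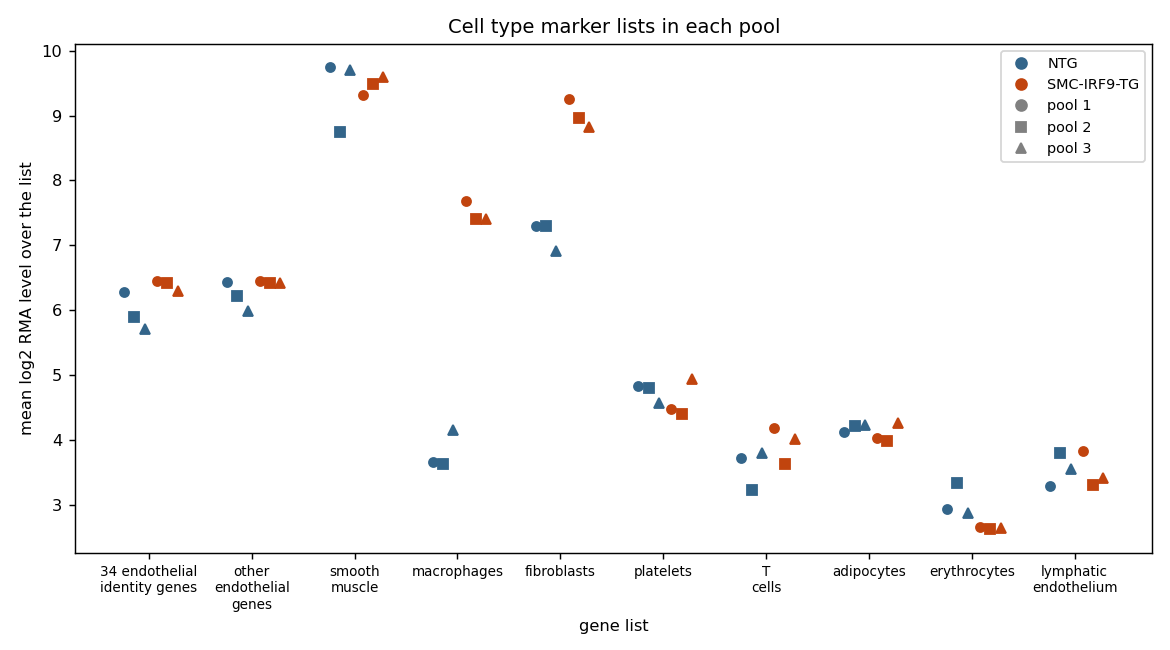
Mean log2 level over each gene list (vertical axis) in each pool, with points for the 3 NTG and 3 SMC-IRF9-TG pools, for the 34 endothelial genes, the other endothelial genes and 8 lists of other cell types. The groups lie far apart for macrophages (at most 4.15 against at least 7.40) and fibroblasts (at most 7.29 against at least 8.82), and within 1 log2 unit for the 34 endothelial genes (5.71 to 6.28 against 6.30 to 6.46).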

How the data were processed

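Injured carotid arteries were measured on 6 Affymetrix arrays, 3 pools per genotype. The authors deposited log2 probe-set levels. The submitters' processing notes name RMA and Affymetrix Expression Console, with versions not given in the sources used here. This method is meant to subtract background, make the arrays alike by quantiles and combine probes into sets, and it compresses differences of dim probe sets. The deposited probe-set levels were not alike by quantiles, since every SMC-IRF9-TG array had a lower quartile below that of every NTG array. The quantile step comes before probes are combined into sets, so probe-set levels need not be alike. How the quantile step was run was not tested. Scanner files were not used here, so detection per probe set was not checked.

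Of 45101 probe sets, 64 controls were left out and 45037 were tested. The annotation gives 1 gene for 34945, several for 932 and none for 9160 of them, and only the first were named. limma 3.58.1 in R 4.3.3 (lmFit, eBayes, all 6 arrays, no covariate) gave 2-sided tests, adjusted over all probe sets by Benjamini-Hochberg at a threshold of 0.05. It was first tested on simulated data. The smallest exact 2-sided permutation p with 3 against 3 is 0.1, which all non-overlapping genes reach. The methods state a t-test for the paper and none for the arrays, so the methods' t-test was an alternative. Others were centring, quantile normalization, leaving out dim probe sets, a trended and robust prior, array weights, a block for the replicate number, leaving out each array, averaged probe sets and other thresholds. Blocks for Xist and for poly-A controls were added after seeing the data.

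The 34 genes and all lists were chosen with earlier results of these data known. All 34 could be named, with values per pool for those that passed and for Pecam1, Cdh5, Kdr, Tek, Erg and Vwf, and in other lists up to 5 genes of largest difference among those that passed. Other names were chosen after their values were seen. Python 3.11.15 with pandas 2.3.3 was used for tables.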

Additional observations from a re-analysis of the deposited data

How the results depend on the processing

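The median difference over the 34 genes stayed positive under all alternatives run, from 0.09 (quantile normalization) to 0.53 (Xist block). Over all genes the median was −0.05 and −0.07 in these fits. With dim probe sets left out it was 0.36 over the 31 endothelial genes tested, beside 0.17 over the 11736 genes of that fit. The count of genes higher, 5, was 4 with averaged probe sets and 6 with array weights, centring, dim probe sets left out, a trended and robust prior or a threshold of 0.1, while the share of all genes higher, 3.11% with the default settings, was 2.67% with averaged probe sets, 3.63% with array weights, 4.44% with centring, 6.06% with dim probe sets left out, 2.79% with the prior and 6.11% at 0.1. It was 1 under quantile normalization, 2 with the replicate block (Fli1 and Sox18), 2 with the Xist block, 0 with the poly-A block, 0 at a threshold of 0.01 and 0 by the methods' t-test, which called 0 of all genes and had 6 of the 34 (17.6%) higher and 0 lower at an unadjusted p under 0.05, beside 10.6% and 9.18% of all genes. With 1 array left out it ran from 0 to 5: without NTG pool 1 it was 3 (Erg, Sox18 and Tie1), without SMC-IRF9-TG pool 1 it was 1 (Sox18), without SMC-IRF9-TG pool 2 it was 0 (8 at an unadjusted p under 0.05, or 23.5% beside 11.1% of all genes) and without SMC-IRF9-TG pool 3 it was 2 (Fli1 and Sox18). Of these 6 fits Sox18 passed in 5, Fli1 in 3, and Tie1, Erg and Calcrl in 2 each. The count of genes lower after adjustment ran from 0 to 2 when 1 array was left out and was 0 otherwise. The causes were not tested. Over all genes the count higher, 566, was 31 with the poly-A block, 100 with the Xist block, 150 at a threshold of 0.01, 1111 at 0.1, 279 under quantile normalization, 355 with the replicate block and from 169 to 688 with 1 array left out, and the count lower, 93, was 3, 11, 19, 308, 97, 49 and from 17 to 231 in these fits.

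The replicate numbers were not taken as pairs. Deviations of same-numbered arrays correlated at −0.15, −0.0006 and 0.03, and NTG pool 1 went best with SMC-IRF9-TG pool 3 (0.13) and NTG pool 2 with SMC-IRF9-TG pool 1 (0.12).

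Adjusted p values over 16 alternative settings, both added blocks included, ran from 0.0047 to 0.198 for Sox18, 0.0105 to 0.43 for Fli1, 0.0185 to 0.501 for Tie1, 0.0267 to 0.622 for Erg and 0.0160 to 0.738 for Calcrl. The poly-A block ended all 5 calls, and the Xist block all but that of Fli1.

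Some differences that had not passed turned sign. With array weights these were Flt4 (0.036), Clec14a (−0.058) and Icam1 (−0.019), with centring Flt4 (0.087), Tek (0.069) and Eng (0.077), with averaged probe sets Cdh5 (−0.039), Eng (0.0013) and Clec14a (−0.38), and under quantile normalization Flt1 (−0.090), Esam (−0.054), Robo4 (−0.0094), Clec14a (−0.26) and Icam1 (−0.18). The poly-A block, which leaves SMC-IRF9-TG pool 3 to be compared with NTG, turned Flt4 (0.019), Eng (0.27), Clec14a (−0.13) and Icam1 (−0.0067). The Xist block, which compares NTG pool 3 with SMC-IRF9-TG, turned Tek (1.47), Vwf (0.085), Egfl7 (0.086), Robo4 (−0.083), Ptprb (0.41), Ramp2 (0.22), Mmrn2 (0.53), Ecscr (0.55) and Gpihbp1 (−0.56). With 1 array left out the differences ran from −0.77 to 0.41 for Tek, −0.29 to 0.18 for Eng, −0.12 to 0.27 for Rasip1, −0.010 to 0.22 for Robo4, −0.25 to 0.081 for Ramp2, −0.74 to 0.016 for Mmrn2, −0.46 to 0.17 for Ecscr, −0.26 to 0.87 for Gpihbp1, −0.21 to 0.45 for Icam1, −0.28 to 0.20 for Clec14a and −0.12 to 0.12 for Flt4. The number of arrays limits the precision of all of these values.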
